A study of Mus musculus with 4 samples.

Results

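The unfolded protein response and the integrated stress response were followed through 35 genes, matched by their exact symbols among the 53379 gene identifiers of the deposited tables. They form an ATF4 amino acid arm of 20 genes and an ER chaperone arm of 15 genes, and all 35 passed the filter on low counts. RNA came from DKO741 mouse embryonic stem cells (mESCs), a Terc-/- line recovered after both alleles of the telomerase RNA gene had been targeted in E14 cells, with the neo cassette of the first targeting removed by Cre adenovirus. The compared groups were cells at PD100, before alternative lengthening of telomeres (ALT), and survivor cells of the same line at PD800, after ALT activation, with 2 libraries each. Both groups carry the Terc deletion, the labels give no treatment beyond continued culture, and all cells come from 1 knock-out line, so that time in culture and ALT cannot be told apart. Feeder cells were used for maintenance, and the cells for RNA were described as feeder-free. The labels speak of passages where the study speaks of population doublings.

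The integrated stress response begins with kinases that phosphorylate the translation factor eIF2, which slows protein synthesis in general while the mRNA of the transcription factor ATF4 is translated better. ATF4 then switches on amino acid transporters, asparagine and serine synthesis enzymes and its own brakes. The unfolded protein response of the endoplasmic reticulum (ER) uses the sensors PERK, IRE1 and ATF6, of which IRE1 splices the Xbp1 mRNA and ATF6 is released by proteolysis, and both raise the synthesis of ER chaperones. Counts per gene show none of these activation steps directly, neither eIF2 phosphorylation nor Atf4 translation, Xbp1 splicing or ATF6 cleavage.

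RefSeq promoter windows of GRCm38.p6, from 250 bases before to 50 bases after the transcription start, were available for 31 of the 35 genes. Both strands were searched for the C/EBP-ATF composite element bound by ATF4 (TGATGNAA), for the ER stress element bound by ATF6 (CCAAT, 9 bases of any kind, then CCACG), and for the UPR element bound by XBP1 and ATF6 (TGACGTGG). The C/EBP-ATF element was found in 7 members, 6 of the 18 ATF4 arm genes and 1 of the 13 ER arm genes with a window, against 4.51% of all 27025 genes with a window. The ER stress element was found in 7 members, all among those 13 ER arm genes, and in 0.137% of all genes. The UPR element was found in no member window and in 0.714% of all genes. No member held both of the elements that were found. A match is a run of letters and was not tested as a binding site.

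The C/EBP-ATF elements of 3 genes whose RNA was lower in PD800 are shown first, each read 5′ to 3′ along its gene, with the element in capitals. All runs shown end before the RefSeq start and lie in no exon of their gene in GENCODE M21.
Atf3: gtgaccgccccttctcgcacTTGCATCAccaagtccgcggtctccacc
Slc7a11: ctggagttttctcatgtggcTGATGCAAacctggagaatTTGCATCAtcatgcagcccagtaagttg
Herpud1: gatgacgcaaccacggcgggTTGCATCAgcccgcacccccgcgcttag

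These runs lie at chr1:191183416-191183463 (minus strand) for Atf3, chr3:50443633-50443699 (minus) for Slc7a11 and chr8:94386297-94386344 (plus) for Herpud1. Slc7a11 alone among the members held 2 matches of this element, facing each other. Asns, Vldlr, Chac1 and Trib3 held 1 match each. The starts of RefSeq and GENCODE differ for some genes: the matches of Asns and Vldlr lie in an exon of a GENCODE transcript, and that of Trib3 lies after the RefSeq start but before the GENCODE gene.

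The ER stress elements are shown for the members that held one and whose RNA passed the test, with CCAAT and CCACG, or their reverse complements, in capitals.
Hsp90b1, distal: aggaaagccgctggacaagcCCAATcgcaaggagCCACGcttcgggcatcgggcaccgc
Hsp90b1, proximal: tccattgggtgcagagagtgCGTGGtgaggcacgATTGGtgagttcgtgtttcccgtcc
Calr: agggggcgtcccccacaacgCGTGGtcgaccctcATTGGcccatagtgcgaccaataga
Dnajc3: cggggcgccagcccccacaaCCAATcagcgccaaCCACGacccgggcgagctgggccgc

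They lie at chr10:86705618-86705676 and chr10:86705513-86705571 (minus strand) for Hsp90b1, chr8:84847055-84847113 (minus) for Calr and chr14:118937807-118937865 (plus) for Dnajc3. Hspa5, Canx, Creld2 and Pdia6 held 1 match each, and that of Hspa5 lies in an exon of a GENCODE transcript.

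**Figure D1:**
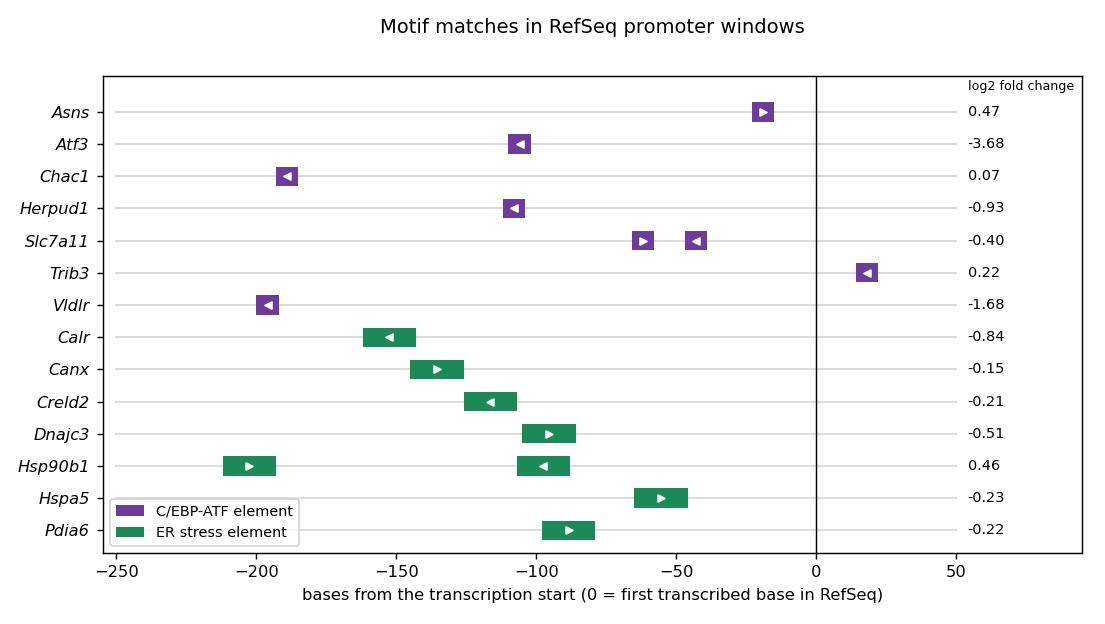
Matches of the C/EBP-ATF element (purple) and the ER stress element (green) in the promoter windows of 14 genes, by distance in bases from the RefSeq transcription start; the white arrowhead gives the strand relative to the gene, and the number at the right is the log2 fold change of the RNA, PD800 over PD100. Genes with the same element had fold changes of either sign, from -3.68 (Atf3) to 0.47 (Asns) for the first and from -0.84 (Calr) to 0.46 (Hsp90b1) for the second.

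The 4 libraries held 32454121 to 38492149 expected counts, the estimated read pairs per gene that RSEM gives, so that 3 counts correspond to 0.0743 to 0.0934 CPM (counts scaled by the TMM-adjusted library total). Terc itself had 1 expected count in a PD100 library and 0 in the other libraries. Log2 CPM values correlated over tested genes at 0.991 within PD100 and 0.996 within PD800, and at 0.952 to 0.958 between groups. The p-values measure the spread between these libraries, which the study calls biological duplicates. For a single gene, an exact two-sided permutation test of 2 against 2 libraries cannot give a p below 0.333, so the tests rest on the spread that edgeR estimates over all genes. Of 10 embryonic stem cell markers, 8 rose and none fell, where 22.1% of all tested genes rose and 23.6% fell (edgeR adjusted p under 0.05). The cells also differed in another way that moves with every result below: all 12 markers of primitive and parietal endoderm, a secretory lineage, fell, and their summed level was 3225 and 3648 CPM in PD100 against 323 and 334 CPM in PD800. Of the 9 tested feeder fibroblast markers 7 fell, with summed levels of 52.9 and 74.6 CPM in PD100 and 15.5 and 16.5 CPM in PD800. The part of these lineages in the stress response values was not tested, and in bulk RNA fewer cells of a type and less RNA per cell cannot be told apart.

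Most members that changed were lower in PD800 cells. At an adjusted p under 0.05 (edgeR's quasi-likelihood test, Benjamini-Hochberg over the 19148 tested genes), 19 of the 35 members passed, 54.3% against 45.6% of all tested genes. Of these, 5 rose, where 22.1% of all tested genes were higher, and 14 fell, where 23.6% were lower. With an adjusted p under 0.01 and a change over 2-fold, Slc7a3 was the only member higher (6.28% of all tested genes) and Atf3 and Vldlr were the only members lower (8.81%). The libraries of both groups did not overlap for 30 of the 35 members, against 73.8% of all tested genes. The median log2 fold change was -0.11 in the ATF4 arm, -0.23 in the ER arm and 0.01 over all tested genes. In the ATF4 arm 3 genes rose and 8 fell, and in the ER arm 2 rose and 6 fell. A fit without 1 PD800 library takes its spread from the PD100 libraries alone. Without 1 PD100 library, it comes from the PD800 libraries alone. Calls and adjusted p values of such fits below therefore cannot by themselves show dependence on the library left out. Over all tested genes the median absolute log2 gap between replicates was 0.163 in PD100 and 0.096 in PD800. Without PD800 replicate 1 the arm medians were -0.14 (ATF4) and -0.18 (ER), and without PD800 replicate 2 they were -0.08 and -0.32.

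**Figure D2:**
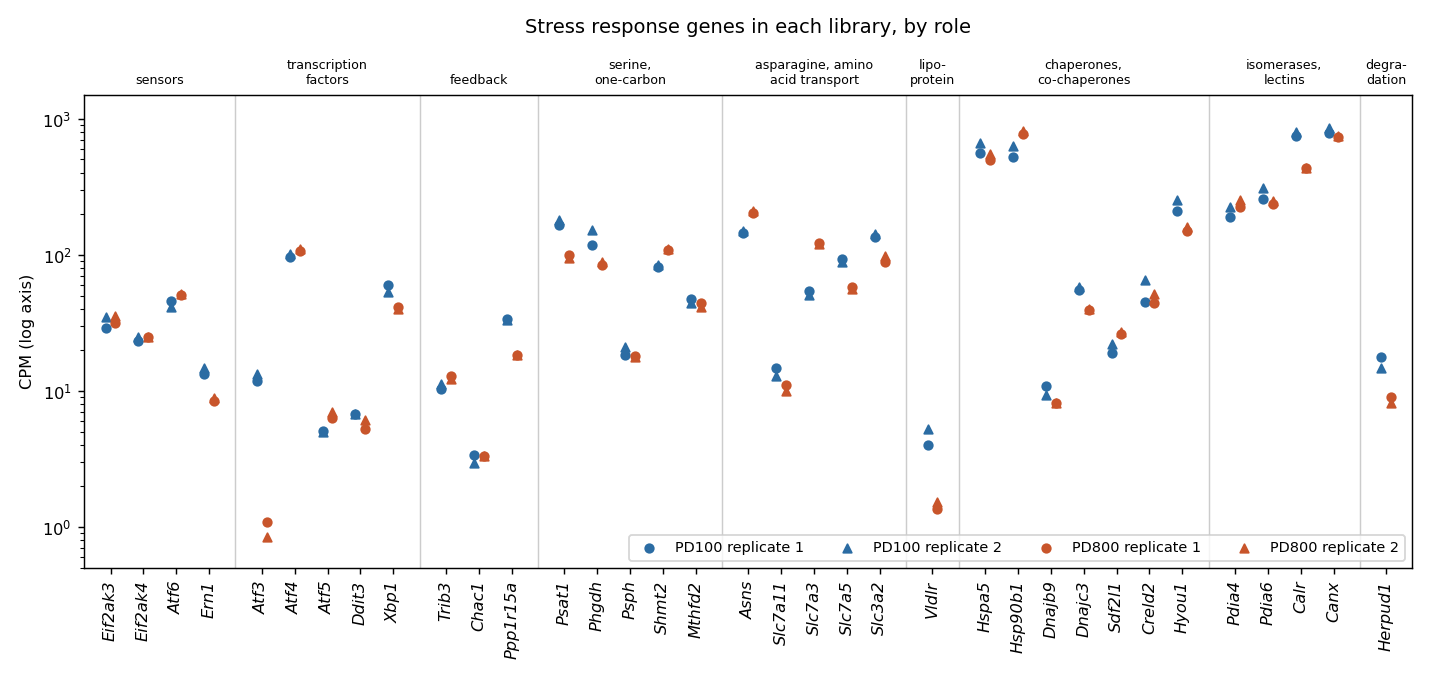
CPM (log axis) of the 35 genes in each of the 4 libraries, grouped by role; blue marks PD100 and orange PD800, circles replicate 1 and triangles replicate 2. Atf3 and Vldlr stand far below their PD100 values in both PD800 libraries, Slc7a3 stands above, and most other members differ by less than 2-fold.

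Of the 4 sensors at the top of both pathways 1 passed the test, Ern1, where 45.6% of all tested genes did. Eif2ak3, which encodes the ER kinase PERK, was measured at 29.0 and 34.7 CPM in PD100 and at 31.2 and 35.4 CPM in PD800, so that the groups overlapped (log2 fold change 0.06 ± 0.12 SE, edgeR adjusted p = 0.689). Eif2ak4, the amino acid sensing kinase GCN2, had 23.1 and 24.6 CPM in PD100 and 24.9 CPM in both PD800 libraries (0.06 ± 0.08, adjusted p = 0.555). Their differences were smaller than, or close to, their standard errors. Atf6, the ER-bound transcription factor, had 45.7 and 41.0 CPM in PD100 and 50.2 and 51.7 CPM in PD800 (0.23 ± 0.09, adjusted p = 0.0698), with no overlap between the groups. Without PD100 replicate 1 the log2 fold change of Atf6 was 0.31. Ern1, which encodes IRE1, fell from 13.2 and 14.7 CPM to 8.37 and 8.84 CPM, a log2 fold change of -0.70 ± 0.10 (adjusted p = 0.00291). The fall of Ern1 remained past 0.05 under all 12 alternatives, the highest adjusted p being 0.0297.

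Among the 5 transcription factors, Atf3 and Xbp1 fell and no other passed, with by far the larger difference in Atf3. Over all tested genes 45.6% passed. Atf3, a stress-induced factor downstream of ATF4, had 473 and 442 counts in PD100 and 39 and 27 counts in PD800. On the CPM scale these were 11.7 and 13.2 against 1.09 and 0.840, a 12.8-fold lower level (log2 fold change -3.68 ± 0.17, edgeR adjusted p = 6.95e-05). Both PD800 libraries lay well above the 3-count floor, so the low level was still measured. Atf4 itself had 96.5 and 102 CPM in PD100 and 107 and 110 CPM in PD800 (0.13 ± 0.07, adjusted p = 0.199).

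Ddit3, which encodes the pro-apoptotic factor CHOP, had 6.76 and 6.74 CPM in PD100 and 5.26 and 6.07 CPM in PD800 (log2 fold change -0.25 ± 0.13, adjusted p = 0.162 by edgeR). Atf5, a related factor, had 5.05 and 5.0 CPM in PD100 and 6.26 and 6.94 CPM in PD800 (0.39 ± 0.13), just outside the threshold at an adjusted p of 0.0502. The 3 ATF family members of the ATF4 arm thus stood at very different differences, from -3.68 for Atf3 to 0.39 for Atf5. Xbp1, the target of IRE1, fell from 59.8 and 52.8 CPM to 41.1 and 40 CPM (-0.47 ± 0.09, adjusted p = 0.00731). Without PD800 replicate 1 the adjusted p of Xbp1 was 0.0693, and without PD800 replicate 2 it was 0.0889.

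The feedback regulators did not move together. Ppp1r15a (GADD34), which directs the phosphatase that removes phosphate from eIF2, fell from 33.4 and 33.1 CPM to 18.4 and 18.3 CPM (log2 fold change -0.86 ± 0.08, edgeR adjusted p = 0.000445). The gap between the groups was many times that between their libraries. Trib3, a pseudokinase that restrains ATF4, had 10.3 and 11.1 CPM in PD100 and 12.8 and 12.1 CPM in PD800 (0.22 ± 0.10, adjusted p = 0.118). Chac1, a glutathione-degrading enzyme induced by ATF4 and CHOP, had 3.37 and 2.97 CPM in PD100 and 3.34 and 3.30 CPM in PD800, which overlapped (0.07 ± 0.16, adjusted p = 0.775).

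Of the serine and folate pathway enzymes, the first steps of serine synthesis fell and the mitochondrial serine hydroxymethyltransferase rose. Phgdh, which commits 3-phosphoglycerate to serine synthesis, fell from 117 and 153 CPM to 83.4 and 88.8 CPM (log2 fold change -0.65 ± 0.13, edgeR adjusted p = 0.0103). Without PD800 replicate 1 its adjusted p was 0.058. Psat1, the aminotransferase of the next step, fell from 166 and 179 CPM to 99.2 and 95.1 CPM (-0.83 ± 0.08, adjusted p = 0.000564). Psph, the phosphatase that completes serine, had 18.3 and 20.9 CPM in PD100 and 17.9 and 17.6 CPM in PD800 (-0.14 ± 0.10, adjusted p = 0.299).

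Shmt2, which transfers a carbon unit from serine to folate in mitochondria, rose from 81.5 and 83.6 CPM to 107 and 110 CPM (log2 fold change 0.39 ± 0.07, edgeR adjusted p = 0.00606). Its adjusted p was 0.0884 without PD800 replicate 1 and 0.1 without PD800 replicate 2. Mthfd2, the next enzyme of mitochondrial folate metabolism, had overlapping values of 46.8 and 44.0 CPM in PD100 and 44.2 and 41.3 CPM in PD800 (-0.09 ± 0.08, adjusted p = 0.429).

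All 5 genes of asparagine synthesis and amino acid transport passed the test, which 45.6% of all tested genes passed, 2 of them higher and 3 lower. Slc7a3, the transporter CAT3 for arginine and lysine, rose from 53.6 and 50.8 CPM to 123 and 119 CPM, 2.32-fold (log2 fold change 1.21 ± 0.07, edgeR adjusted p = 0.000137), and rose under all 12 alternatives. Slc7a5, the large neutral amino acid transporter LAT1, fell from 92.5 and 87.5 CPM to 57.6 and 55.5 CPM (-0.67 ± 0.08, adjusted p = 0.00101). Slc3a2, the heavy chain CD98 that pairs with Slc7a5 and Slc7a11, fell from 136 and 142 CPM to 88.7 and 97.3 CPM (-0.58 ± 0.08, adjusted p = 0.00248). The transporter of cationic amino acids was therefore higher while both chains of the LAT1 complex were lower. Per transcript length, on the TPM scale (RSEM's length-scaled transcript level), the ratio of Slc7a3 to Slc7a5 was 0.937 and 0.940 in PD100 against 3.49 and 3.61 in PD800, and that of Slc3a2 to Slc7a5 was 3.04 and 3.48 against 3.21 and 3.93. The first ratio moved by more than the gap between libraries, and the second overlapped.

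Asns, asparagine synthetase, rose from 144 and 150 CPM to 201 and 207 CPM (log2 fold change 0.47 ± 0.07, edgeR adjusted p = 0.00333), with an adjusted p of 0.0595 without PD800 replicate 2. Slc7a11, the cystine importer xCT, fell from 14.8 and 12.9 CPM to 10.9 and 9.96 CPM (-0.40 ± 0.11, adjusted p = 0.0291). Its call was among the least firm: the adjusted p was 0.0936 without PD800 replicate 1, 0.195 without PD800 replicate 2 and 0.0598 by DESeq2. Vldlr, the very low density lipoprotein receptor, a target of the PERK branch, fell from 162 and 176 counts to 49 counts in each PD800 library. This was 4.01 and 5.27 CPM against 1.36 and 1.52 CPM, a 3.21-fold lower level (-1.68 ± 0.21, adjusted p = 0.00166).

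Of the 7 chaperones and co-chaperones, Hsp90b1 and Sdf2l1 rose, Hyou1 and Dnajc3 fell, and Hspa5, Dnajb9 and Creld2 did not pass. The share that passed over all tested genes was 45.6%. Hspa5, the Hsp70 chaperone BiP that holds the ER sensors inactive, had 555 and 658 CPM in PD100 and 493 and 544 CPM in PD800 (log2 fold change -0.23 ± 0.11, edgeR adjusted p = 0.154). Hsp90b1, the ER Hsp90 GRP94, rose from 522 and 624 CPM to 769 and 807 CPM (0.46 ± 0.11, adjusted p = 0.0176). Its adjusted p was 0.113 without PD800 replicate 1 and 0.166 without PD800 replicate 2. Hyou1, the large Hsp70 relative that exchanges nucleotide on BiP, fell from 208 and 250 CPM to 150 and 160 CPM (-0.56 ± 0.11, adjusted p = 0.00766), with an adjusted p of 0.0767 without PD800 replicate 1.

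Among the co-chaperones, Dnajc3 (p58IPK), which also inhibits PERK, fell from 55.1 and 57.7 CPM to 39.2 and 39.8 CPM (log2 fold change -0.51 ± 0.07, edgeR adjusted p = 0.0027), with 0.0557 without PD800 replicate 1. Sdf2l1, which extends BiP cycling on unfolded proteins, rose from 18.9 and 21.9 CPM to 26.3 and 27.2 CPM (0.39 ± 0.10, adjusted p = 0.0217), with 0.0987 and 0.142 without PD800 replicate 1 and 2. Dnajb9, the BiP co-chaperone ERdj4, had 10.8 and 9.38 CPM in PD100 and 8.12 and 8.19 CPM in PD800 (-0.31 ± 0.11, adjusted p = 0.0682). Creld2, an ER protein with disulphide isomerase activity, had 44.6 and 65.0 CPM in PD100 and 43.8 and 51.0 CPM in PD800 (-0.21 ± 0.18, adjusted p = 0.403). The PD100 libraries of Creld2 lay further apart than the groups, and its fold change was -0.45 without PD100 replicate 1 and 0.07 without PD100 replicate 2.

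Of the 4 lectins and disulphide isomerases only Calr passed, where 45.6% of all tested genes did. Calr, the soluble lectin chaperone calreticulin, fell from 749 and 794 CPM to 430 and 432 CPM (log2 fold change -0.84 ± 0.08, edgeR adjusted p = 0.000622). Canx, its membrane-bound relative calnexin, had 789 and 859 CPM in PD100 and 733 and 747 CPM in PD800 (-0.15 ± 0.09, adjusted p = 0.198). The isomerases Pdia4 and Pdia6, which form disulphide bonds in new proteins, gave 0.20 ± 0.11 (adjusted p = 0.207) and -0.22 ± 0.11 (adjusted p = 0.168). Pdia4 had 189 and 226 CPM in PD100 and 224 and 251 CPM in PD800, and Pdia6 254 and 310 CPM against 236 and 250 CPM. Herpud1, a scaffold of ER-associated degradation, fell from 17.8 and 14.8 CPM to 8.93 and 8.09 CPM (-0.93 ± 0.13, adjusted p = 0.00199).

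**Figure D3:**
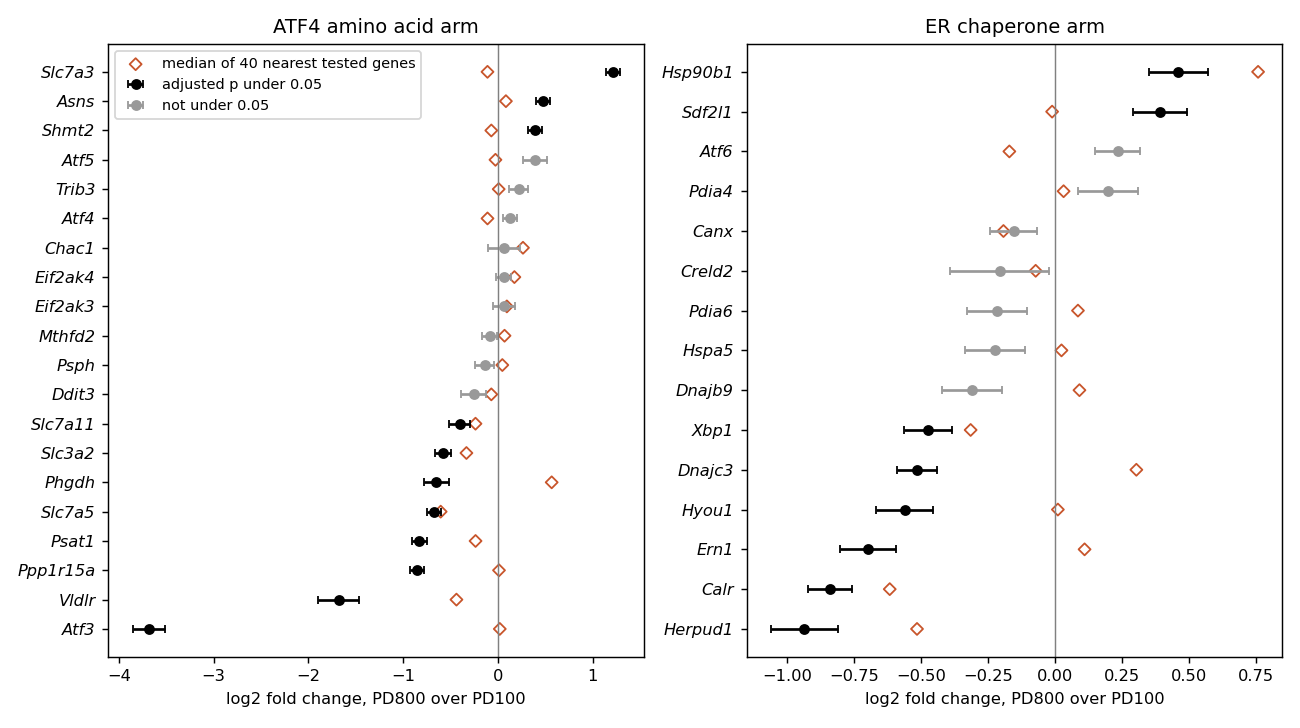
Log2 fold change (PD800 over PD100) of each member with its standard error, by arm; black points passed an adjusted p of 0.05, grey points did not, and open diamonds give the median log2 fold change of the 40 nearest tested genes on the chromosome. Hsp90b1 lies below its neighbours at 0.76, while Phgdh (neighbours 0.57) and Dnajc3 (neighbours 0.30) fell in regions that were higher.

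Compared per transcript length, the order of the most abundant members changed. In PD100 cells Calr led with 358 and 368 TPM, above Canx with 210 and 253, Hspa5 with 207 and 220, and Hsp90b1 with 161 and 182. The libraries of Canx and Hspa5 overlapped, so their order was not resolved. In PD800 cells Hsp90b1 led with 202 and 200 TPM, and Calr (173 and 169), Canx (162 and 167) and Hspa5 (152 and 162) followed, with the libraries of Canx and Hspa5 again overlapping. The ratio of Hsp90b1 to Hspa5 in TPM was 0.780 and 0.826 in PD100 and 1.33 and 1.23 in PD800, and that of Calr to Canx was 1.70 and 1.45 against 1.07 and 1.01. At the other end, Vldlr had the lowest mean level of the 35 in both groups, 0.855 TPM in PD100 and 0.2 TPM in PD800. The summed TPM of the ER arm was 1246 and 1350 in PD100 and 932 and 944 in PD800, and that of the ATF4 arm was 448 and 469 against 361 and 353. The CPM scale is not corrected for length but is scaled by the TMM factors, which TPM is not. On it the sums differed less, 3533 and 3998 against 3262 and 3425 for the ER arm. For the ATF4 arm they were 1094 and 1162 against 1044 and 1061.

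**Figure D4:**
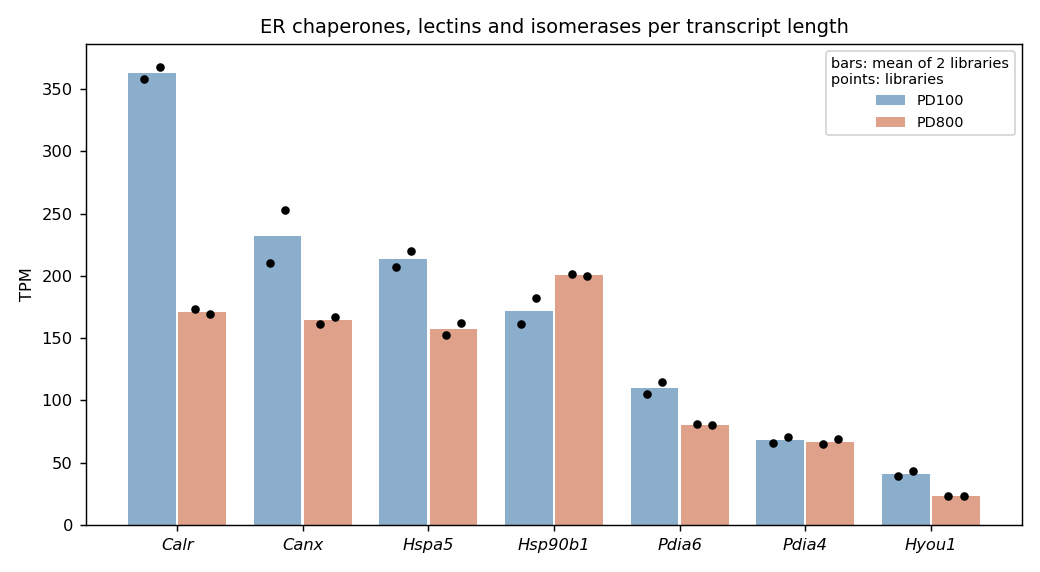
TPM of the 7 ER members that were most abundant in PD100. Bars are means of 2 libraries and points the libraries, with PD100 in blue and PD800 in orange. Calr is the highest in PD100 (mean 363 TPM) and Hsp90b1 in PD800 (mean 201 TPM).

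Part of these calls differed when TPM values were tested with limma, which changed the scale, the normalization and the test. The TPM values were not scaled by the TMM factors, which were 1.05 and 1.03 in PD100 and 0.960 and 0.964 in PD800. On log2(TPM + 1) the median of all tested genes was -0.12, against 0.01 by edgeR. How much of the shift came from the missing factors was not tested. By limma on that scale 1 member rose, Slc7a3 (log2 fold change 0.95, adjusted p = 0.00591), and 17 fell, against 5 and 14 by edgeR. Over all tested genes 1771 rose and 5094 fell by the same limma fit, against 4224 and 4515 by edgeR. Asns (log2 fold change 0.24, adjusted p = 0.0693), Shmt2 (0.17, 0.175), Hsp90b1 (0.23, 0.145) and Sdf2l1 (0.15, 0.226) were still higher in PD800 but no longer passed. Slc7a11 (-0.31, 0.07) also no longer passed. On the other side, Ddit3 (-0.42, 0.038), Hspa5 (-0.44, 0.023), Pdia6 (-0.45, 0.0185) and Canx (-0.49, 0.0352) passed as lower. The pseudocount also compressed the lowest genes, to -2.31 for Atf3 and -0.63 for Vldlr.

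The ER chaperones also varied within groups. In PD100, replicate 2 lay above replicate 1 for 11 of the 15 ER arm genes and for 49.9% of all tested genes, with a median log2 gap of 0.15 against -0.0007 over all genes. In PD800 it did so for 13 of the 15, against 48.3% of all tested genes, with a median gap of 0.05 against -0.01. It did so in both groups for 11 of the 15, against 31.2% of all tested genes. For the ATF4 arm the counts were 12 and 10 of 20. In PD100 the gap was 0.24 for Hspa5, 0.26 for Hsp90b1, 0.29 for Pdia6 and 0.54 for Creld2, as large as or larger than the group difference for Hspa5, Pdia6 and Creld2. Without PD100 replicate 1, the replicate with the lower levels of these genes, the ER arm's median log2 fold change was -0.35. Single values were then -0.34 for Hspa5, -0.35 for Pdia6, -0.21 for Canx, -0.45 for Creld2 and 0.31 for Atf6. Without PD100 replicate 2, the median was -0.12, with 0.31 for Pdia4 and -0.43 for Dnajb9.

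Some members moved with the genes around them. The study reported copy-number changes in PD800 cells against PD100, above all towards the ends of the long arms. The genome of these cells was not analysed here, so copy number was not tested. The median log2 fold change of the 40 nearest tested genes was computed for each member. Slc7a5, Calr and Herpud1, the 3 members on chromosome 8, all fell, and their neighbours had medians of -0.60, -0.62 and -0.52. The 1008 tested genes of chromosome 8 had a median of -0.45, the lowest of any autosome. Less its neighbours, Slc7a5 differed by -0.07, Calr by -0.22 and Herpud1 by -0.42. On chromosome 19, Psat1, Slc3a2 and Vldlr fell among neighbours at -0.24, -0.33 and -0.44, and differed from them by -0.60, -0.246 and -1.24. Xbp1 and Slc7a11 fell among neighbours at -0.32 and -0.24 and differed from them by -0.16 and -0.17. Hsp90b1, on chromosome 10, lay among genes with a median of 0.76 and differed from them by -0.30, so that its sign turned. It was the 1 of the 19 members that passed whose sign turned, and 14 of the 19, Hsp90b1 included, differed from their neighbours by at least 0.25 on the log2 scale. Phgdh and Dnajc3 fell although their neighbours had medians of 0.57 and 0.30, and Atf3 and Slc7a3 stood apart from neighbours at 0.02 and -0.11. Less the neighbours, the median was -0.16 in the ATF4 arm and -0.25 in the ER arm. Atf3 lies 4.11 Mb from the last annotated base of chromosome 1, and Shmt2 and Ddit3 lie 3.07 and 3.30 Mb from that of chromosome 10, in a shared neighbourhood with a median of -0.07.

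The rest of the pathway was read through 6 further lists of 81 genes, of which 80 were tested. Together 18 of them rose and 27 fell, 56.2% passing against 45.6% of all tested genes (22.1% higher and 23.6% lower), and the median log2 fold change was -0.11. With an adjusted p under 0.01 and over 2-fold, 2 were higher and 8 lower, where 6.28% and 8.81% of all tested genes were. Of 21 other ATF4 targets 6 rose and 8 fell, with a median of -0.33. Pycr1, a proline synthesis enzyme, rose by 1.69 ± 0.15 and Jdp2, a factor of the AP-1 family, by 1.38 ± 0.14 on the log2 scale, while Ddit4, an inhibitor of mTORC1 signalling, gave -1.77 ± 0.09 and Slc1a4, a neutral amino acid transporter, -1.19 ± 0.11. Pycr1 and Ddit4 lay among genes with medians of 1.42 and -0.92, and Jdp2 and Slc1a4 among genes with medians of 0.43 and -0.21. Of 12 aminoacyl-tRNA synthetases, which charge tRNAs and are in part ATF4 targets, 3 rose and none fell by edgeR at an adjusted p of 0.05. Wars gave 0.76 ± 0.10 and Cars 0.57 ± 0.10 (median of the list 0.06). The neighbours of Wars had a median of 1.06, above Wars itself, and those of Cars 0.14. Of 11 genes for eIF2, eIF2B and the eIF2 kinases and phosphatase, 5 rose, among them the eIF2 subunit Eif2s1 (0.68 ± 0.08) and the eIF2B subunit Eif2b2 (0.58 ± 0.07), among neighbours at 0.67 and 0.20. The kinase PKR, encoded by Eif2ak2, fell (-1.20 ± 0.09) among neighbours at -0.87, as did Eif2s3x (-0.25 ± 0.08) among neighbours at 0.04.

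In the secretory pathway, 1 of 14 other ER folding and import genes rose and 6 fell, with a median of -0.10, where 22.1% of all tested genes rose and 23.6% fell. P4hb, the main disulphide isomerase, rose by 0.67 ± 0.09 among neighbours with a median of 1.43, and Sec63, of the import channel, and Ero1l, the oxidase that recharges isomerases, gave -0.90 ± 0.10 and -0.76 ± 0.08 among neighbours at -0.86 and -0.32. Of 14 genes of ER-associated degradation 2 rose and 7 fell, with a median of -0.32. The lectin Os9 was lower (-1.05 ± 0.09), and Sel1l, the adaptor of the HRD1 ligase (0.59 ± 0.07), and the mannosidase Edem3 (0.35 ± 0.08) were higher. Sel1l matched its neighbours at 0.58, while those of Edem3 stood at -0.24 and those of Os9 at -0.07. Of 8 tested genes among other ER stress sensors and proteases 1 rose and 4 fell (median -0.41). Creb3 and Creb3l2, membrane-bound factors related to ATF6, fell by 1.12 ± 0.10 and 1.00 ± 0.11, and Rtcb, the ligase that joins the Xbp1 exons, rose by 0.60 ± 0.11. Neighbours stood at -0.01 for Creb3, 0.13 for Creb3l2 and 0.74 for Rtcb, above Rtcb itself. The named genes are among those with the most extreme changes that passed in each list.

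**Figure D5:**
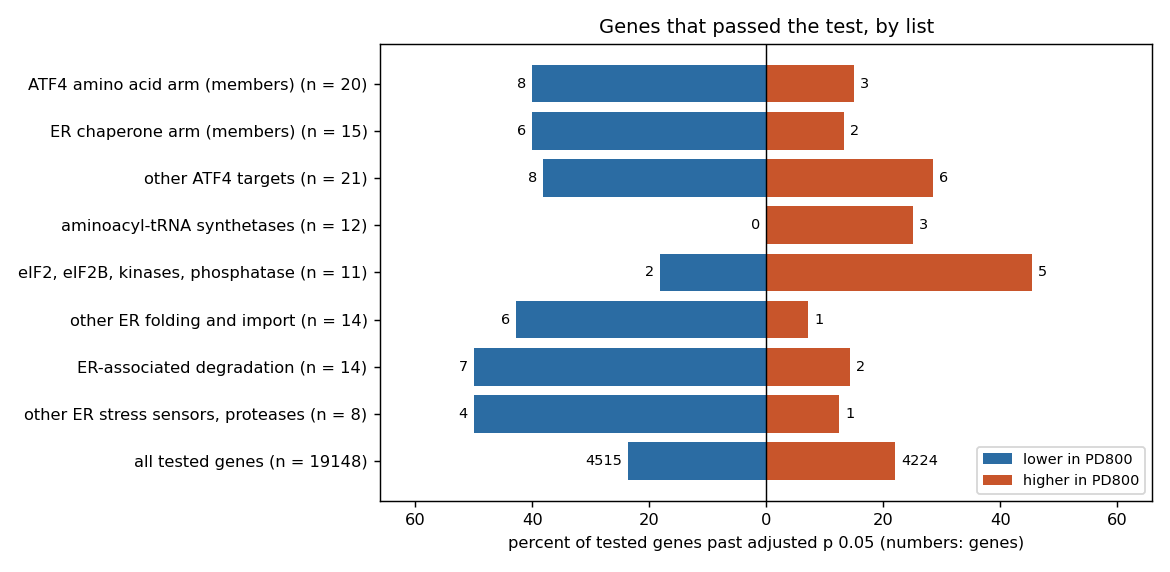
Percent of the tested genes of each list that passed an adjusted p of 0.05, lower in PD800 to the left and higher to the right, with the numbers of genes at the bar ends; the bottom bar gives all tested genes. Falls outnumbered rises in both member arms (8 against 3 and 6 against 2), in ER-associated degradation (7 against 2) and in other ER folding genes (6 against 1), and rises outnumbered falls for the aminoacyl-tRNA synthetases (3 against 0) and the eIF2 list (5 against 2).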

How the data were processed

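RNA of DKO741 mESCs was sequenced by the authors as paired ends and aligned to mm10 with STAR 2.5.3a. The authors deposited RSEM 1.3.0 expected counts, which are not scaled for depth, and TPM values, which are scaled for length and to a common total. A read shared by similar genes is divided between them, which limits the values of close copies. The annotation release is not given in the sources used here, and coordinates came from GENCODE M21, matched by identifier. Expected counts were rounded and tested with edgeR 4.0.16 in R 4.3.3 (filterByExpr with a minimum count of 10, TMM, quasi-likelihood test, Benjamini-Hochberg adjustment). The standard error is the log2 fold change over the square root of F. Both call thresholds (adjusted p under 0.05, and under 0.01 with over 2-fold) were applied over all tested genes. All members were named, and from each other list at most the 2 highest and 2 lowest changes past 0.05, of which 1 is not reported here. The members and lists were chosen with earlier results of these data known. The 12 alternatives used DESeq2 1.42.0, its size factors, upper-quartile factors, other filters, a replicate block, limma 3.58.1 on log2(TPM + 1) and log2(TPM + 0.1), and each library left out. The procedure was tested on simulated data. Promoters came from RefSeq. Floors cover counting error only. Strand, Xbp1 splicing and protein sequences were not analysed here.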

Additional observations from a re-analysis of the deposited data

How the results depend on the processing

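Of the 19 members that passed, none changed direction under any of the 12 alternatives. All 19 still passed with DESeq2's size factors, upper-quartile factors, no filter, a minimum of 10 counts per library, the replicate block and without either PD100 library, 18 with DESeq2, 14 with limma on either TPM scale, 11 without PD800 replicate 1 and 13 without PD800 replicate 2. Leaving out a PD800 library rests on the spread of the PD100 libraries alone. The replicate numbers name libraries without a stated pairing, and the correlation of the deviations of same-numbered libraries was 0.349. With the replicate block 8 members rose and 16 fell, adding Atf5, Atf6, Hspa5, Dnajb9 and Pdia4. The calls over all tested genes grew too, from 4224 higher and 4515 lower to 5214 higher and 5262 lower.

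With 1 library left out, 1 to 7 members rose and 9 to 19 fell. Over all tested genes 2306 to 5269 rose and 2808 to 5355 fell, and in the other lists 10 to 24 rose and 16 to 33 fell. By limma on log2(TPM + 1) and log2(TPM + 0.1), 1771 and 1775 of all tested genes rose and 5094 and 5178 fell. By the stricter thresholds 297 and 533 were higher and 920 and 1779 lower. On both scales 1 member rose and 0 were higher by the stricter thresholds, and 5 were lower by them on the second scale. In the other lists 7 and 8 rose, and 1 was higher by the stricter thresholds on the first scale. The medians were -0.29 and -0.32 in the ATF4 arm, -0.45 and -0.49 in the ER arm and -0.12 and -0.21 over all genes, which stood at -0.00080 with DESeq2's size factors and 0.023 with upper-quartile factors.

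Members that had not passed changed sign on the TPM scales: Atf4 (-0.10 and -0.11), Trib3 (-0.0021 and -0.0030), Chac1 (-0.10 and -0.15), Eif2ak3 (-0.16 and -0.19), Eif2ak4 (-0.057 and -0.071) and Pdia4 (-0.033 and -0.034). With 1 library left out, Chac1 ranged from -0.043 to 0.17, Eif2ak3 from -0.058 to 0.17 and Creld2 from -0.45 to 0.066. The causes were not tested.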

Other observations

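Cytosolic and mitochondrial heat shock genes, which respond to unfolded proteins outside the ER, moved in both directions. Of 11 such genes 3 rose and 6 fell (edgeR's quasi-likelihood test, adjusted p under 0.05), where 22.1% of all tested genes rose and 23.6% fell, and the list's median was -0.46 on the log2 scale. The libraries of both groups did not overlap for any of the 11, as for 73.8% of all tested genes. The stress-inducible Hsp70 gene Hspa1a had 8.60 and 8.78 CPM in PD100 and 2.25 and 3.11 CPM in PD800 (-1.70 ± 0.18), and its near-identical copy Hspa1b had 19.4 and 21.1 CPM against 7.07 and 5.82 CPM (-1.65 ± 0.12). Reads shared by these copies were divided between them, so that their separate levels are uncertain. In the other direction, the small heat shock gene Hspb1 rose from 296 and 361 CPM to 533 and 592 CPM (0.78 ± 0.12), and Hsp90aa1, the inducible cytosolic Hsp90, rose from 4115 and 5099 CPM to 7405 and 7894 CPM (0.73 ± 0.13). The neighbours of Hsp90aa1 had a median log2 fold change of 0.91.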
